A study of Caenorhabditis elegans with 2 samples.

Results

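The sites described here are the EGL-13 regions that lie between autosomal genes and away from promoters. A region was taken when its summit was on an autosome, in no protein-coding gene body, and in no promoter window. The window began 1000 bp before the 5′ end of each protein-coding transcript and ended 200 bp past it. There were 395 such sites among 1803 autosomal and 2294 optimal regions, which is 21.9% of the autosomal ones (exact 95% interval 20.02 to 23.9%). The choice used position and no signal value. The remaining autosomal regions were 1087 promoter sites (60.3%) and 321 gene body sites (17.8%).

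The study was chromatin immunoprecipitation with sequencing on whole Caenorhabditis elegans larvae of 1 group with 2 biological replicates, numbered 3 and 4. The animals were hermaphrodite L1 larvae of strain GOU883, starved as L1 after bleaching and taken 6 h after synchronization. They carry a transgenic EGL-13 fused at its C-terminus to GFP and FLAG, and the chromatin was recovered with an antibody against GFP, although the antibody field of the labels reads egl-13. All cells of the larvae were mixed, so cell types cannot be told apart. There is no second group, and a possible control experiment named in the labels was not analysed here.

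EGL-13 is a Sox protein, a transcription factor that binds DNA through an HMG box. In C. elegans it is known for fate choices of gas-sensing neurons and of uterine cells next to the vulva. C. elegans genes are short and lie close together, so most regulatory DNA is found just before a 5′ end. Sites farther out are known in some genes as enhancers.

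The sequence at the summit is shown for 11 sites, because the data on motifs turn on it. The summit base and 50 bases to each side are given on the plus strand of the RefSeq WBcel235 genome, which is ce11, and each site is named by the nearest protein-coding 5′ end. Capitals mark matches to the 13 motifs that were searched on both strands. The motif GAGAGA reads as TCTCTC when it lies on the opposite strand, and the motif GACGCA then reads as TGCGTC. Sites from cmd-1 to egl-3 are among the 20 strongest, and the last 3 lie by genes used in neurons.
cmd-1, chrV:1151439-1151539: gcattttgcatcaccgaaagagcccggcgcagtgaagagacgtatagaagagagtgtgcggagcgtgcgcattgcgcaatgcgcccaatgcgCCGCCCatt
sup-26, chrIII:4282139-4282239: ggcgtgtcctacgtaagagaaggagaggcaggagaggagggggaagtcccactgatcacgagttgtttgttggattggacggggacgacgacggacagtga
hif-1, chrV:20778377-20778477: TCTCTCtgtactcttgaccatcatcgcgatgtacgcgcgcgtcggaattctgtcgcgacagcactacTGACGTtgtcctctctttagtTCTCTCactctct
T04C4.3, chrIV:2219590-2219690: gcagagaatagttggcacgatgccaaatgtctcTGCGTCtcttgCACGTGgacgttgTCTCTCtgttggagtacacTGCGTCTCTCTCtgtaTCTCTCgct
Y105C5A.1, chrIV:15570883-15570983: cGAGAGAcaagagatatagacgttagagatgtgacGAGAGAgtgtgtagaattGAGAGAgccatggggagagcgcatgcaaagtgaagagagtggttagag
nhr-88, chrII:2974045-2974145: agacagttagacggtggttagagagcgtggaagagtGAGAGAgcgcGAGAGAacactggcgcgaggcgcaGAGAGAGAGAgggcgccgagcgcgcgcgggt
egl-9, chrV:10466720-10466820: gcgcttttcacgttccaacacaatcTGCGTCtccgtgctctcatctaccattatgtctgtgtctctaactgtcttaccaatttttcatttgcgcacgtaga
egl-3, chrV:10174791-10174891: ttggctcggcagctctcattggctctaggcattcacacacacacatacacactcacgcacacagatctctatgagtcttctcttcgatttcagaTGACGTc
unc-51, chrV:20005870-20005970: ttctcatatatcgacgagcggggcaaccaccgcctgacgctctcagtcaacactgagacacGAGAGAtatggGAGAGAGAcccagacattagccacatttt
unc-31, chrIV:12771488-12771588: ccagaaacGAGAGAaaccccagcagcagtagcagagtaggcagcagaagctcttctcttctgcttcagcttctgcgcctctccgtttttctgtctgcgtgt
unc-64, chrIII:13275929-13276029: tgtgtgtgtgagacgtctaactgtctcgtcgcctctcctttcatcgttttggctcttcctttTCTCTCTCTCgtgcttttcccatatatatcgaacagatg

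The strongest intergenic site was also the strongest of all 2294 regions, at chrV:1151310-1151685. Its signal value, the authors' own measure of strength on an unstated scale, was 975 in the pooled list, 555 in replicate 3 and 405 in replicate 4. It ranked 1 in the pooled list, 3 in replicate 3 and 1 in replicate 4. The summit lay inside linc-128, a long noncoding RNA gene, 4782 bp upstream of cmd-1 (WBGene00000552), which encodes calmodulin. The other flanking gene, cutl-22, ended 4988 bp away, and both genes run in the same direction.

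The next site lay 1965 bp upstream of sup-26, which encodes an RNA-binding protein, with a value of 633 in the pooled list, 440 in replicate 3 and 219 in replicate 4. A summit 200 bp farther on, in the same deposited region of 562 bp (chrIII:4281976-4282537), had 324 in the pooled list, 76.4 in replicate 3 and 122 in replicate 4. Its rank differed between the replicates, 880 in replicate 3 and 113 in replicate 4. The third place was held by a site 2632 bp upstream of F58D12.3 and 545 bp from the 3′ end of F58D12.1, with 483 pooled, 346 in replicate 3 and 138 in replicate 4.

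Genes of secreted peptides came next, and for ins-13 and nlp-40 the site lay on the 3′ side of the gene. By ins-13, an insulin-like peptide gene, summits of 459 and 297 lay 942 and 714 bp from its 3′ end, 228 bp apart. The stronger had 280 in replicate 3 and 182 in replicate 4, the weaker 206 and 107. Both lay within 200 bp of sls-2.2, an SL2 RNA gene (SL2 RNA supplies the leader that is spliced onto downstream genes of operons), and of the ncRNA gene C17C3.23. By nlp-40, a neuropeptide gene, the summit lay 183 bp past the 3′ end in a gap of 646 bp before the 3′ end of rcor-1, with 433 pooled, 252 in replicate 3 and 167 in replicate 4.

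The 20 strongest sites included those of hif-1 and egl-9, which act in the hypoxia response and are described together here after the sites were seen. The site 1980 bp upstream of hif-1, the hypoxia-inducible factor, had a value of 433 in the pooled list, 294 in replicate 3 and 143 in replicate 4. It ranked 42 and 71 in the replicates, at chrV:20778304-20778529. The site 1747 bp upstream of egl-9, the prolyl hydroxylase that marks HIF-1 for degradation, had 304 pooled, 214 in replicate 3 and 95.6 in replicate 4, and 2 ncRNA genes lay within 200 bp. Whether 2 is more than other gene pairs would have was not tested, and hypoxia genes were not a fixed list here.

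Of the other strong sites, that of T04C4.3 and fnip-2 lay in a divergent gap with 387 pooled, 260 in replicate 3 and 123 in replicate 4. Those of H12I13.1 (384), Y105C5A.1 (362), F40E3.3 (353), F53E10.5 (331) and nhr-88 (324) followed, the last 2544 bp upstream of a nuclear hormone receptor gene. A pair of sites of 324 and 305 lay 5874 and 7196 bp upstream of F54F12.1. The last 3 of the 20 were at F07H5.13 (295), egl-3 (263) and Y37A1B.7 (261), the last of which lay 8576 bp from any protein-coding 3′ end in a gap of 17966 bp. All 20 were among the 2294 strongest regions of each replicate, with a worst rank of 880 in replicate 3 and 308 in replicate 4. Of the 20, 11 lay between genes of the same direction, 7 between divergent and 2 between convergent genes, and 14 lay upstream of the nearest 5′ end.

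**Figure D1:**
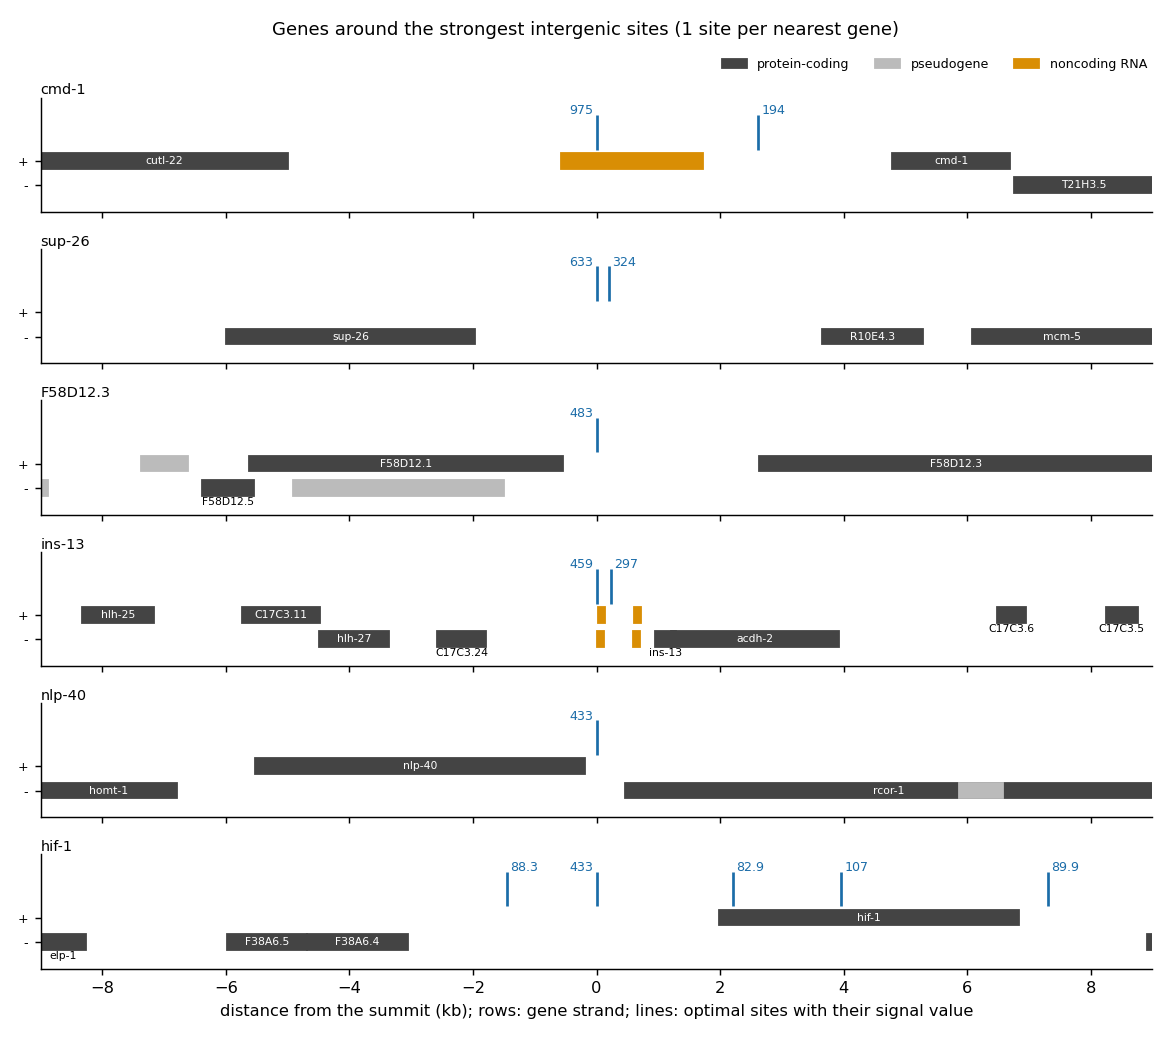
Genes (bars, by strand) and optimal summits (blue lines with their pooled signal value) around the strongest intergenic site of each of 6 nearest genes, by distance from the summit in kb. The summit at 0 kb in each row lies between protein-coding genes, that of cmd-1 inside linc-128 and that of ins-13 beside small noncoding RNA genes, while summits of 82.9 and 107 in the hif-1 row lie inside that gene and are not among the 395.

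The intergenic sites were weaker than promoter sites and close to gene body sites. Their median signal value was 92.6 in the pooled list (quartiles 75.9 and 128.8, range 65.3 to 975, 95% interval of the median 89.9 to 97.6). Promoter sites had a median of 113 (108.6 to 119.2) and gene body sites 91.9 (89.1 to 96.1), and intergenic sites of the X chromosome had 95.3 (88.3 to 103). In replicate 3 the medians were 62.6, 74.0 and 60.9 for autosomal intergenic, promoter and gene body sites, and in replicate 4 they were 35.5, 44.1 and 36.4. So promoter sites had the highest median in each list, and the intervals of the intergenic and promoter medians did not overlap in any. The optimal list is the strongest end of the pooled list, so these medians are those of sites past its lower limit of 65.3.

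The upper end of the list held fewer intergenic sites. Among the 500 strongest of all regions were 62 of the 395 (15.7%) and 296 of the 1087 promoter sites (27.2%). The share over all optimal sites was 21.8%. The 100 strongest held 10 intergenic sites (2.53%, against 4.36% of all optimal sites). The 20 strongest held 2 (0.506%, against 0.872% of all optimal sites). Their median rank was 1350, against 953 for promoter sites.

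Recovery in the separate replicates rose with the pooled signal value. The pooled list was made from the same 2 replicates, so this rise is partly built in and is no independent result. A site counted as recovered when a summit among the 2294 strongest regions of that replicate lay within 100 bp. Both replicates held 240 of the 395 (60.8%, exact interval 55.8 to 65.6%), beside 64.8% of all optimal sites. Replicate 3 alone held 98, replicate 4 alone 44, and neither held 13. Promoter sites stood at 68.2%, a difference of −7.41 points (Newcombe 95% interval −13 to −1.93), and gene body sites at 58.9% (1.88 points, −5.30 to 9.08). Of the 132 strongest intergenic sites 93.9% were in both replicates, of the 131 in the middle 67.9%, and of the 132 weakest 20.5%. Across the 371 sites found at any rank in both lists, the replicate signal values had a Spearman's rho of 0.538, and across 1016 promoter sites 0.683. Pearson's r of the log2 values was closer between the classes, at 0.675 for intergenic and 0.733 for promoter sites. The points of each correlation are sites of the same 2 libraries.

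**Figure D2:**
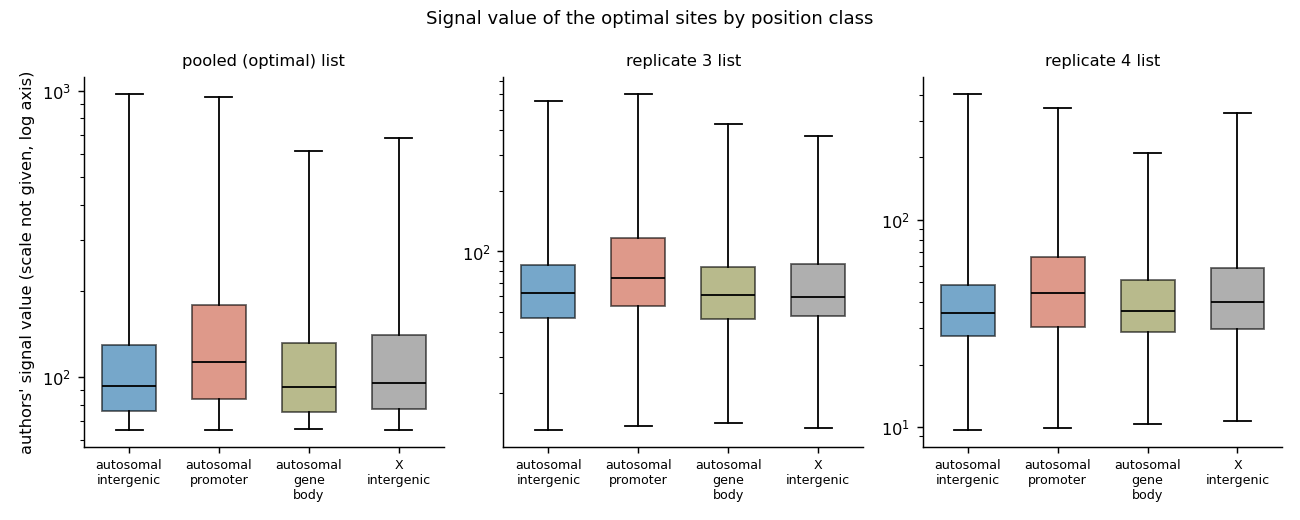
Signal value (log axis, scale of the authors' peak caller) of the optimal sites by position class in the pooled list and in each replicate list; boxes are quartiles with the median, whiskers the lowest and highest value. The autosomal intergenic median (92.6 pooled) lies below the promoter median (113) and beside that of gene bodies (91.9).

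The ground open to the rule was 19.4 Mb, or 23.5% of the autosomes, and held 20.4 sites per Mb, where all autosomal sites together had 21.8 per Mb of autosome. For comparison, 5360 weaker regions of the pooled list met the same rule and overlapped no optimal region. Their signal values ran from 18.9 to 65.1, and this list was deposited with background regions included. Sites were counted as independent in all intervals, which cover counting error only.

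Most sites lay between genes of the same direction, and few lay between 2 gene ends. Tandem gaps held 228 sites (57.7%, exact interval 52.7 to 62.7%), divergent gaps, between 2 gene starts, 136 (34.4%, 29.8 to 39.4%), and convergent gaps 30 (7.59%, 5.18 to 10.7%). A further site lay between the chromosome end and the first gene. Of the bases that meet the rule, 53.4% were tandem, 28.8% divergent and 17.6% convergent. Per Mb this gave 24.3 sites in divergent, 22.0 in tandem and 8.78 in convergent gaps. Convergent gaps were also rarer among the sites than among weaker regions, at 12.8% of those, by −5.20 points (−7.61 to −2.04). For divergent gaps that difference was 3.18 points (−1.51 to 8.15). For tandem gaps, with 56.0% of weaker regions, it was 1.77 points (−3.33 to 6.73). The median signal value was 96.1 in divergent, 91.5 in tandem and 91.3 in convergent gaps.

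The nearest protein-coding 5′ end was at a median of 2446 bp (quartiles 1514 and 4078, range 414 to 16087 bp). The rule itself sets the lower end on the upstream side. Weaker regions had a median of 2589 bp and the bases that meet the rule 2645 bp. Between 1000 and 2000 bp lay 148 sites (37.5%), a density of 23.8 per Mb. Densities from 2000 to 10000 bp were between 19.2 and 19.9 per Mb, and 6 sites beyond 10000 bp gave 8.43 per Mb. The signal value did not order with distance: its median was 92.6 for the sites at 1000 to 2000 bp, 96.7 at 3000 to 5000 bp and 84.8 at 5000 to 10000 bp. Genes of every biotype included, the nearest 5′ end came to a median of 1321 bp.

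The side of the nearest gene was uneven. Of the 395 sites, 304 (77.0%, 72.5 to 81.0%) lay upstream of the nearest 5′ end, against 67.7% of weaker regions (difference 9.29 points, 4.72 to 13.4). Nearest 3′ ends were at a median of 3502 bp, with a range of 20 to 18488 bp. A 3′ end lay within 500 bp of 49 sites (12.4%), against 17.2% of weaker regions (−4.74 points, −7.81 to −0.991). In convergent gaps both flanking genes end toward the site, and sites there lay at a median of 285 bp from a 3′ end. Both of these differences therefore overlap with the lower convergent share, by an amount that was not tested. For 54 sites (13.7%) the gene nearest by its 5′ end also had an optimal summit in a promoter window, against 7.33% for weaker regions and 8.51% of all autosomal protein-coding genes.

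**Figure D3:**
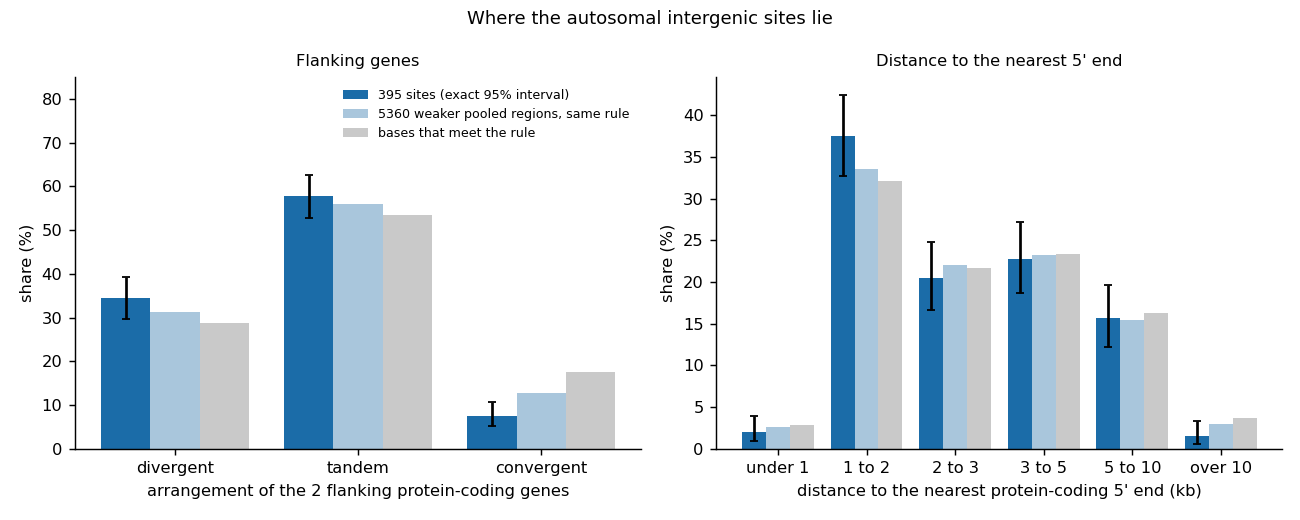
Share of sites (dark blue, exact 95% interval), of weaker pooled regions under the same rule (light blue) and of all bases that meet the rule (grey), by arrangement of the flanking genes and by distance in kb to the nearest protein-coding 5′ end. Convergent gaps hold 7.59% of sites and 17.6% of bases. In each distance class from 2 to 10 kb the share of sites lies close to the share of bases.

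The farthest site lay 16087 bp from the 5′ end of Y23H5B.5, in a gap of 27008 bp before dmsr-2, with a pooled value of 81.9 and ranks of 1605 and 2845 in replicates 3 and 4. A site by cdh-7, a cadherin gene, lay at 11002 bp (93.1, ranks 1612 and 1226). The third lay 10875 bp from egl-27, which encodes a chromatin regulator of cell polarity (91.6, ranks 1716 and 1224). At the 1000 bp limit, the closest sites outside the window were at mstr-1 (1008 bp upstream, value 65.6), ZC487.1 (1011 bp, 72.4) and mtm-3 (1013 bp, 194). Just inside it were unc-11 (1000 bp, 106), R02F2.1 (989 bp, 82.0) and F53C3.6 (988 bp, 97.8). Signal values on the 2 sides of the limit overlapped.

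The sites were spread over 326 gaps, of which 270 held 1 site, 46 held 2 and 10 held 3 or more. The gap between F54F12.1 and Y39E4B.6 (15313 bp) held 4, with values of 70.0 to 324. The gap between tax-6, the calcineurin catalytic subunit gene, and C02F4.4 also held 4, of 218, 140, 102 and 67.8, at 2466 to 6168 bp upstream of tax-6, and 2 of them were recovered in both replicates. In the gap of 5781 bp between egl-3 and cul-5, a cullin gene, the 3 sites had 263, 136 and 134, and all 3 were recovered in both. The third of these gaps with 4 sites was that between C46F11.6 and npr-15, a neuropeptide receptor gene (66.3 to 166). Another optimal summit lay within 1000 bp of 10.6% of the sites and of 10.03% of promoter sites.

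By chromosome, the density over the ground of the rule was 28.3 sites per Mb on III, 25.2 on I, 19.8 on II, 19.5 on IV and 14.7 on V. The share of each chromosome's optimal sites that were intergenic had another order. It was 27.2% on IV, 24.2% on V, 20.4% on III, 20.1% on II and 18.3% on I. No interval was computed for these values by chromosome. The central 50% of the chromosomes held 244 sites (61.8%, 56.8 to 66.6%), but 46.5% of the bases and 54.5% of the weaker regions (7.29 points, 2.23 to 12.1). Promoter sites (60.6%) and gene body sites (63.2%) were as central, with differences of 1.15 points (−4.51 to 6.65) and −1.47 points (−8.52 to 5.66). The intergenic sites of the X chromosome were less so, at 44.9% (16.9 points, 8.21 to 25.3).

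Noncoding RNA genes were near many summits. Within 200 bp, 111 of the 395 sites had such a gene (28.1%, 23.7 to 32.8%), against 17.8% of weaker regions, 13.2% of the bases and 15.1% of promoter sites (13 points above promoter sites, 8.24 to 18.1). Gene body sites had 25.2% (2.87 points, −3.69 to 9.28) and the intergenic sites of X 31.4% (−3.25 points, −11.4 to 4.53). At the other end, 187 sites (47.3%) had no annotated gene of any kind within 1000 bp, with a median signal value of 92.2.

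The kinds of noncoding gene differed. Genes annotated as ncRNA, a general class, were near 77 sites (19.5%) and 5.35% of weaker regions, a difference of 14.1 points (10.5 to 18.4), and 32 summits lay inside such a gene. The ncRNA share was 11.8% at promoter sites (7.72 points lower, 3.57 to 12.3), 16.8% at gene body sites (a difference of 2.67 points, −3.08 to 8.26) and 24.3% at X intergenic sites (−4.83 points, −12.4 to 2.18). Small nucleolar RNA genes, whose products guide the modification of ribosomal RNA, were near 17 sites (4.30%) and 0.224% of weaker regions (4.08 points, 2.47 to 6.56). Of these 17 summits, 12 lay upstream of the snoRNA gene's 5′ end, 4 inside it and 1 downstream. Transfer RNA genes were near 8 sites (2.03%, 1.45 points above weaker regions, 0.423 to 3.37), of which 6 were upstream. Long intergenic RNA genes (lincRNA) were near 14 (3.54%, 2.41 points, 0.949 to 4.74), and 11 of those summits lay inside. Transfer, small nucleolar and small nuclear RNA genes were near 6.84% of the sites, 4.32% of promoter sites (2.51 points, 0.00333 to 5.62), 11.5% of gene body sites (−4.69 points, −9.17 to −0.466) and 15.1% of X intergenic sites (−8.30 points, −14.5 to −2.97).

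Genes of piwi-interacting RNAs and pseudogenes went the other way. Piwi-interacting RNA genes, which in C. elegans lie in dense stretches of chromosome IV and silence foreign sequence, were near 8 sites (2.03%) and 11.01% of weaker regions (−8.98 points, −10.3 to −6.90). Pseudogenes were near 10 (2.53%) and 7.28% (−4.74 points, −6.11 to −2.57), and 14.5% of the bases.

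Among the sites with a small RNA gene the strongest were those at sls-2.2 described above. The strongest with a snoRNA gene lay 1141 bp upstream of pas-5, a proteasome subunit gene, by F25H2.15, with 212 pooled, 127 in replicate 3 and 86.6 in replicate 4. A microRNA gene was near 3 sites (0.76%, against 0.336% of weaker regions and 0.168% of bases), which are named after their values were seen. The difference from weaker regions was 0.424 points (−0.114 to 1.88). The genes were mir-52 (171) in the same gap as the strong Y37A1B.7 site, mir-8209 (157) and mir-53 (124). All 3 sites were recovered in both replicates, as were 93.9% of the 132 strongest intergenic sites, to which they belong.

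**Figure D4:**
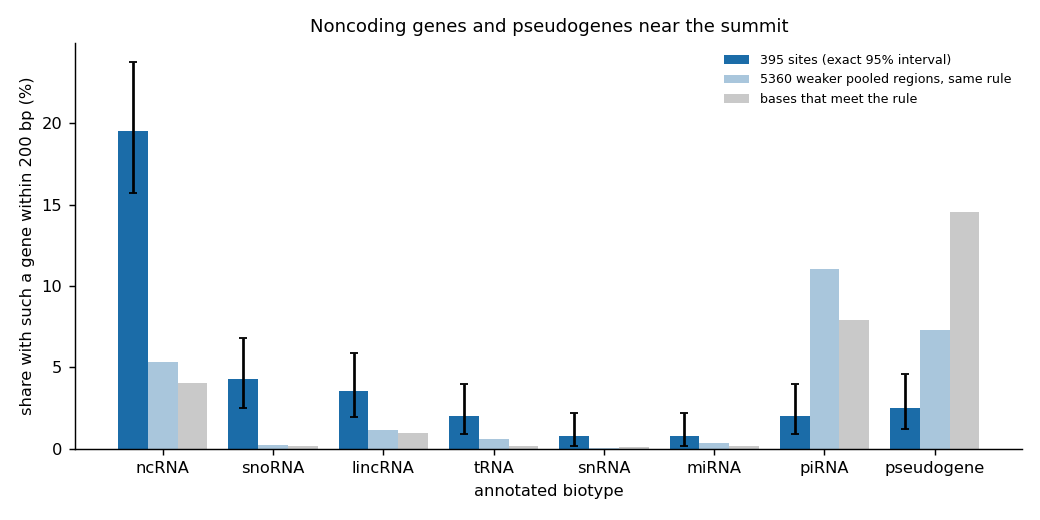
Share with an annotated noncoding gene or pseudogene within 200 bp, by biotype, for the 395 sites (dark blue, exact 95% interval), weaker pooled regions under the same rule (light blue) and bases that meet the rule (grey). The ncRNA, snoRNA and lincRNA shares of the sites (19.5%, 4.30% and 3.54%) lie above both comparisons, the piRNA and pseudogene shares (2.03% and 2.53%) below.

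The DNA under the summits was richer in G and C than its surroundings. The median GC content of the summit windows was 45.5% (quartiles 37.6 and 51.5%), against 33.7% in the flanks centred 300 bp away. Promoter sites had 46.5% and 35.6%, and weaker regions 32.7% and 33.2%. The median over all windows of the ground of the rule was 33.7%.

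Of 13 motifs, 5 (38.5%) were more frequent at summits than in the flank at the lower coordinate and 3 (23.1%) were less frequent, by an exact McNemar test, two-sided, with Benjamini-Hochberg adjustment over the 13. GAGAGA, the GAGA-type repeat, was at 141 of 395 summits (35.7%, exact interval 31.0 to 40.6%) and 34 flanks (8.61%), with 124 sites that had it at the summit alone and 17 at the flank alone (exact adjusted p = 3.82e-20). GACGCA was at 60 summits (15.2%, 11.8 to 19.1%) and 7 flanks (1.77%; exact adjusted p = 3.23e-11). Over all windows of the same length in the ground of the rule, 5.56% hold GAGAGA and 2.04% GACGCA. Both motifs were already known to be frequent over all sites of these data, so their direction is no independent result. Either was present at 172 sites (43.5%) and both at 29.

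Other motifs were higher with smaller differences. CAGCTG, an E-box, was at 4.56% of summits and 1.01% of flanks (exact adjusted p = 0.0113). TGACGT, from the CREB-type site, was at 7.85% and 3.29% (exact adjusted p = 0.0207). CCGCCC, a GC box, was at 4.56% and 1.77% (exact adjusted p = 0.0432). The A and T rich motifs were lower: AACAAT, a core that Sox proteins bind, at 4.81% of summits and 10.6% of flanks (exact adjusted p = 0.0113), the Forkhead-type TGTTTA at 3.54% and 9.11% (exact adjusted p = 0.0113), and the GATA-type TGATAA at 6.08% and 11.1% (exact adjusted p = 0.0251). AACAAAG, the longer Sox core, was at 3 summits and 11 flanks (exact adjusted p = 0.0749), and the remaining 4 motifs searched, the E-box CACGTG, the homeodomain core TAATTA, the bZIP site TGACTCA and the tRNA promoter element GGTTCGA, did not pass either. GC content moves with these shares, as above, and its part in them was not tested. In all windows of the ground, AACAAT was at 12.7%, TGTTTA at 8.22% and TGATAA at 9.07%. The calls for GAGAGA and GACGCA were kept in each of the 10 other settings, but no other motif's call was kept in all of them. Without replicate 3, CCGCCC and CAGCTG were each 0.246 points higher at summits than flanks and TGACGT 3.20 points, and none of these passed, while TAATTA passed at −3.94 points. Without replicate 4, TGACGT (2.24 points), CAGCTG (1.25), TGATAA (−2.24) and TGTTTA (−4.49) did not pass.

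The GAGAGA share was higher here than in the other classes. It was at 20.3% of promoter summits, 15.4 points lower (10.2 to 20.7), at 28.4% of gene body summits (7.35 points, 0.454 to 14.1), at 23.8% of X intergenic summits (11.9 points, 3.86 to 19.3) and at 7.39% of weaker regions (28.3 points, 23.7 to 33.2). For GACGCA the promoter share was 18.7%, a difference of −3.49 points (−7.50 to 0.972). The gene body share was 10.9% (4.29 points, −0.747 to 9.16), and the share on X was 8.11% (7.08 points, 1.28 to 12.1). No p is given for these differences, which compare many pairs of classes and motifs.

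GAGAGA went with strength. It was at 49.2% of the 132 strongest sites, 32.8% of the middle and 25% of the weakest, and sites with it had a median signal value of 103.8, those without it 88.5. AACAAT went the other way, at 1.52%, 3.82% and 9.09%. Both replicates recovered 70.9% of the sites with GAGAGA and 55.1% of those without. The nearest match lay at a median of 21.5 bp from the summit and 76 of the 141 sites had 2 or more matches, while an unbroken alternating run of G and A of 10 or more bases was at 30 sites (7.59%). By arrangement the GAGAGA share was 39.5% (33.1 to 46.1%) in tandem, 30.9% (23.2 to 39.4%) in divergent and 30% (14.7 to 49.4%) in convergent gaps. By chromosome it ran from 21.1% on V (12.5 to 31.9%) to 45.1% on I (33.2 to 57.3%). Sites by a tRNA, snoRNA or snRNA gene had it at 5 of 27 (18.5%, 6.30 to 38.1%).

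Sequence shared with other places was counted as well. A stretch of 24 bases of the summit window occurred elsewhere in the genome at 42 sites (10.6%), close to 10.9% of promoter and 11.2% of gene body sites. Without those 42 sites, GAGAGA was 25.5 points higher at summits than flanks (exact adjusted p = 1.08e-16), where all sites gave 27.1 points. The exact adjusted p ranged from 3.28e-22 to 5.70e-09 over all settings tried. How the authors placed such reads is not given in the sources used here.

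**Figure D5:**
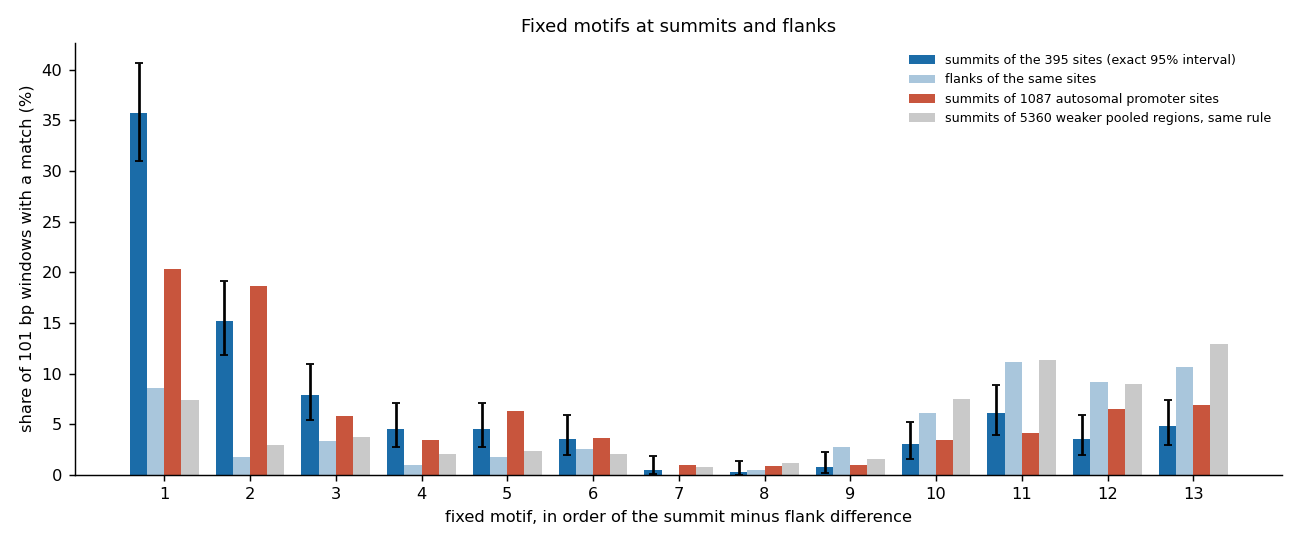
Share of windows of 50 bp to each side with a match to each of 13 motifs at the summits of the 395 sites (dark blue, exact 95% interval), in their flanks (light blue), at promoter summits (red) and in weaker pooled regions under the same rule (grey). Motif 1 is GAGAGA, 2 is GACGCA, 3 is TGACGT, 4 is CAGCTG, 5 is CCGCCC, 6 is CACGTG, 7 is GGTTCGA, 8 is TGACTCA, 9 is AACAAAG, 10 is TAATTA, 11 is TGATAA, 12 is TGTTTA and 13 is AACAAT, and GAGAGA reaches 35.7% at the summits and 20.3% at promoter summits.

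The genes nearest by their 5′ end numbered 350, of which 38 had 2 or more sites. In all, 46 sites had such a gene in 1 of 20 fixed lists. The lists were drawn up with earlier results of these data known, and no set test was run.

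Pan-neuronal genes were nearest to 7 sites (1.77%, exact interval 0.715 to 3.62%), against 0.828% of promoter sites, 1.87% of gene body sites, 0.690% of weaker regions and 0.259% of the bases of the rule. All 7 were recovered in both replicates. All 7 were also in the stronger 50% of the optimal list, where 89.9% of the 159 intergenic sites were recovered in both. The strongest was that of egl-3, a proprotein convertase that cuts neuropeptide precursors, 1088 bp upstream, with 263 pooled, 174 in replicate 3 and 85.4 in replicate 4. The site of unc-51, the kinase of autophagy and axon growth, lay 1435 bp upstream with 257 pooled, 156 in replicate 3 and 100.1 in replicate 4. That of unc-31, which primes dense core vesicles, lay 2329 bp upstream with 221 pooled, 124 in replicate 3 and 86.6 in replicate 4. The other sites were those of unc-64 (190), the syntaxin gene, unc-57 (128.9), endophilin, snb-1 (112), synaptobrevin, and unc-104 (106), the kinesin of synaptic vesicle precursors. The sites of unc-51, unc-31, unc-64 and snb-1 hold GAGAGA.

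Neuropeptide genes were nearest to 5 sites (1.27%, against 1.88% of weaker regions and 1.34% of bases), led by ins-13 and nlp-40. The list of gas-sensing neuron genes, the cells in which EGL-13 is known to act, had 1 site (0.253%, against 0.280% of weaker regions and 0.147% of bases), 5989 bp upstream of flp-10 with a pooled value of 66.9, which was not recovered in both replicates. Neurotransmitter receptor and channel genes had 4 sites (1.01%, against 1.10% of weaker regions and 1.24% of bases), with mgl-3 (92.9) and kvs-3 (84.6) first. None of the 4 was recovered in both, beside 60.8% of all 395 sites. Axon guidance and cell adhesion genes had 1 (0.253%, against 0.616% of weaker regions and 0.538% of bases), that of ptp-3 (135), a receptor tyrosine phosphatase.

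Nuclear hormone receptor genes had 9 sites (2.28%, against 2.09% of weaker regions and 1.92% of bases), led by nhr-88 (324) and nhr-20 (193). Homeobox genes had 5 (1.27%, against 0.951% of weaker regions and 1.04% of bases), led by ceh-48 (101.1) and ceh-62 (84.2). Of these 5, 4 were recovered in both replicates, beside 60.8% of all 395 sites. The bHLH, SOX, T-box and Forkhead list had 2 (0.506%, against 0.821% of weaker regions, 0.775% of bases and 2.49% of gene body sites), tbx-33 (181) and daf-16 (117). The daf-16 site, by the FOXO factor of insulin signalling, lay 845 bp from its 3′ end in a convergent gap. The insulin and starvation response list, which shares unc-51 and unc-31 with the neuronal list, had 5 sites (1.27%, 0.187% of weaker regions and 0.148% of bases) at unc-51, unc-31, din-1 and daf-16. That list also had 9 gene body sites (2.80% of those) and 8 promoter sites (0.736% of those). Heterochronic genes had 1 site, 1427 bp upstream of lin-41 (167), which is 0.253% against 0.131% of weaker regions and 0.105% of bases. Wnt and Notch pathway genes had 1, at kin-19 (80.6), against 0.485% of weaker regions and 0.344% of bases. For the lists of this paragraph, the intervals take in the share of the bases, other than for the insulin and starvation response list (0.412 to 2.93%). Of the other lists with sites, the pan-neuronal interval (0.715 to 3.62%) also lay above its share of the bases (0.259%). The chemoreceptor interval (0.157 to 2.20%) lay below its share of the bases (6.69%). These intervals count sites as independent and are not adjusted for the 20 lists, so they are a description and not a test. The pan-neuronal and the insulin and starvation response lists both count the unc-51 and unc-31 sites, so their shares are not separate results.

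Housekeeping genes are set here beside their promoter sites. Ribosomal protein genes had 1 intergenic site (0.253%, against 0.205% of weaker regions and 0.242% of bases), 5584 bp upstream of rps-25 (80.6, ranks 1015 and 16882 in replicates 3 and 4), and 25 promoter sites (2.30% of those). Chaperone and proteasome genes had 1, at pas-5 (0.253%, against 0.224% of weaker regions and of bases), and 25 promoter sites. Splicing and RNA-binding genes had 3 (0.759%, interval 0.157 to 2.20%, against 0.354% of weaker regions and 0.275% of bases), of which 2 were those of sup-26, and 18 promoter sites (1.66%). Translation factor, histone, vacuolar ATPase and respiratory, and vesicle sorting genes had 0 of 395, which allows up to 0.930% (exact upper bound), and each has under that share of the bases, from 0.0277% to 0.233%. Chemoreceptor genes had 3 sites (0.759%), srab-24 (142), str-56 (103) and srh-68, although 6.69% of the bases of the rule and 4.81% of weaker regions have such a gene nearest. Cuticle collagen genes had 1, at col-108 (76.2), which is 0.253% against 0.578% of weaker regions and 0.690% of bases.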

How the data were processed

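The members of the class, the motifs and the gene lists were chosen with earlier results of these data known. The authors deposited region lists on ce11, 1 per replicate and 1 of both pooled, each of 30000 regions with background included, and an optimal list of 2294 made from them after an IDR threshold, per the labels and the deposited file descriptions. These name 1 more input file that also enters the control normalized signal. The sources used here name no aligner, caller or IDR threshold. The deposited signal value, of unknown scale, was used within a list. The deposited −log10 q value was not used, being tied, and the deposited summit offset gave the summit. All optimal regions were regions of the pooled list and its strongest. Read depth is unknown, so precision rests on the 2 replicates and on counts of sites.

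Summits were classed on WBcel235, which is ce11, with Ensembl release 115. Windows were 50 bp to each side of the summit, flanks 300 bp away. Weaker regions were pooled regions that met the rule and overlapped no optimal region. Intervals are exact for shares and Newcombe for differences, at the 95% level. The only test was the exact McNemar test. Named were the 20 strongest sites, the strongest on each autosome, the 3 farthest, 3 on each side of the limit and the 2 strongest of each list. No runs of 3 or more sites in 1000 bp steps were found. The lists on ce10 were not used. The code was tested on simulated data. Tools were SciPy 1.17.1, NumPy 2.4.6, pandas 2.3.3, matplotlib 3.10.9 and Python 3.11.15. Alternatives covered the promoter window, signal limit, whole region, replicates, flank, distances and small RNA genes; leaving out copied sequence was added after seeing the data.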

Additional observations from a re-analysis of the deposited data

How the results depend on the processing

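No paired analysis was possible because there is 1 group. In the stronger 50% of the optimal list, intergenic sites were 17.2% of autosomal sites, their median signal value was 144, 0.891 times that of promoter sites (all sites 0.819), 89.9% were in both replicates, GC content was 48.5%, 2 motifs were higher and 1 lower at the summit, and 24 sites had a listed gene. With a promoter window of 500 bp the share was 28.8% and the median distance 1802 bp; with 2000 bp these were 14.6% and 3408 bp, divergent gaps held 28.9%, and 2 motifs were higher and 0 lower (exact McNemar test). Asking the whole region gave 19%, 2747 bp and 1 lower motif. Sites in both replicates had a median of 112, 0.776 times that of promoter sites. Recovery was 49.1% with summits within 50 bp. Noncoding genes were at 11.4% when the summit had to lie inside and 33.4% within 500 bp. With 5′ ends of every biotype the median distance was 1321 bp, and with both flanking genes 87 sites were listed. The flank at the higher coordinate, and leaving out copied sequence, each gave 1 lower motif.

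Leaving out 1 replicate gave 66.7% (without replicate 3) and 59.4% (without replicate 4) in the central 50% of autosomes, 2 and 3 higher motifs, and 4 and 1 lower ones. Signal values of separate lists have different scales, so no median was set beside the pooled one. The other 80 summary values stayed within the interval of the main value or 1.5 times its count, and no result changed direction past a threshold. The causes of these shifts were not tested.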
